A study of Mus musculus with 6 samples.

Results

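Olfactory sensory neurons (OSNs) that carry mRNA of *Avp*, the gene of the vasopressin precursor, were rare cells of the main olfactory epithelium (MOE) in all 6 single-cell libraries of the series. They were chosen by counts of unique molecular identifiers (UMIs), each of which stands for 1 captured mRNA molecule. A kept cell had at least 1000 UMIs and 500 detected genes. A mature OSN (mOSN) was a kept cell with at least 10 UMIs of the maturity marker *Omp*, more *Omp* than *Gap43*, at least 5 UMIs over the transduction genes *Cnga2*, *Adcy3* and *Gng13* together, and under 5 UMIs of the sustentacular gene *Cyp2g1*. The Avp-positive neurons were mOSNs with at least 2 *Avp* UMIs and no UMI of *Nqo1*, a marker of the dorsal epithelium. They numbered 78 of 5535 mOSNs and of 24830 kept cells. Because *Omp*, *Avp*, *Nqo1* and the other gating genes chose the cells, their levels are given as a description, with no test.

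The 6 libraries came from MOE cells dissociated with papain and captured with the 10x Chromium v3 kit. Both swap libraries, which are biological replicates, came from mice with a swap allele of *Cbx1* and a Cre driver. *Cbx1* encodes the heterochromatin protein HP1β, and after Cre recombination this allele expresses the coding sequence of *Cbx5*, which encodes HP1α, from the *Cbx1* promoter. Both control libraries are labelled as replicates too, but their genotype labels differ: replicate 1 is given as wild type with Cre and replicate 2 as carrying the *Cbx* allele with no Cre. The tetOP2 library came from a mouse that carries *gg8-tTA* and *tetOP2iresGFP*, in which a driver specific to OSNs induces the P2 receptor, the product of *Olfr17*. The gg8tTA library came from a mouse with the driver alone. No age is given in the labels. The series' design text speaks of sorted cells, whereas mOSNs made up 15.4% of kept cells in swap replicate 1, 20.3% in swap replicate 2, 22.2% in control replicate 1, 28.7% in control replicate 2, 26.2% in tetOP2 and 24.7% in gg8tTA.

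The libraries held 63277934 UMIs in swap replicate 1, 60729307 in swap replicate 2, 58498968 in control replicate 1, 59045808 in control replicate 2, 32005196 in tetOP2 and 35298494 in gg8tTA. The swap label was checked in mOSNs. *Cbx1* gave 21 and 43 UMIs in swap replicates 1 and 2, against 1163 and 2625 UMIs in control replicates 1 and 2, so both swap libraries lay far below both controls. *Cbx5* stood at 80.9 and 90.4 UMIs per 1000000 UMIs of the same cells (CPM) in the swap mOSNs and at 20.9 and 34.6 CPM in the control mOSNs. The female transcript *Xist* was at 1274 CPM in swap replicate 1, 1468 CPM in tetOP2 and 1337 CPM in gg8tTA and at most 0.584 CPM in the other libraries, so swap replicate 1 differed from both controls in sex as well. Cell barcodes were shared between pairs of libraries in 60 instances over all kept cells, and none of the shared barcodes belonged to an Avp-positive neuron.

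Vasopressin is a peptide hormone that hypothalamic neurons cut from a precursor and pack into dense-core vesicles, and it acts on G protein-coupled receptors. Each OSN chooses a single olfactory receptor (OR) gene out of a very large family, and where a neuron lies between the dorsal and the ventral epithelium limits which ORs it can choose. Class I ORs and the enzyme genes *Nqo1* and *Acsm4* mark dorsal OSNs, while the semaphorin receptor *Nrp2* and the adhesion molecule *Ncam2* mark ventral ones.

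*Avp* lies on the minus strand of chromosome 2 at 130580620 to 130582588 (RefSeq, GRCm38.p6), and *Oxt*, the oxytocin gene, lies 3565 bases away. No *Oxt* UMI was found in the 78 neurons. The 250 bases before the annotated start of *Avp* are shown because the promoter is the regulatory sequence next to the gene that defines these cells. They span chr2:130582589-130582838, written 5′ to 3′ on the strand of the gene, and capitals mark the only match to any of 3 motifs searched on both strands.

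Avp promoter: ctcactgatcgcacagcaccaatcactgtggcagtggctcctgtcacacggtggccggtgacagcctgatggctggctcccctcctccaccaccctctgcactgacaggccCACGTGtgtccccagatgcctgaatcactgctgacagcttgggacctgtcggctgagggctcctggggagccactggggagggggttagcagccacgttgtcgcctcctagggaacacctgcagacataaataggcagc

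The match is an E-box, CACGTG, from 139 to 134 bases before the start, and 6.05% of 27025 mouse promoter windows of the same length hold one. No match was found for the homeodomain motif TAATTA, which 4.90% of windows hold, or the cAMP response element TGACGTCA, which 1.62% hold. These letters are a description of the window and not of binding.

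Avp-positive neurons were found in every library and were a small share of mOSNs in each. They were 12 of 769 mOSNs in swap replicate 1, or 1.56% (exact 95% interval 0.809 to 2.71%). In swap replicate 2 they were 7 of 1002, or 0.699% (0.281 to 1.43%). Control replicate 1 held 17 of 1130, or 1.504% (0.879 to 2.40%). Control replicate 2 had the highest share, with 32 of 1274 mOSNs, or 2.51%. The gg8tTA library held 9 of 689, or 1.31%, and tetOP2 the lowest share, with 1 of 671, or 0.149% (0.00377 to 0.828%). These are Clopper-Pearson intervals and cover counting error only, since the cells of 1 mouse are not replicates.

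**Figure D1:**
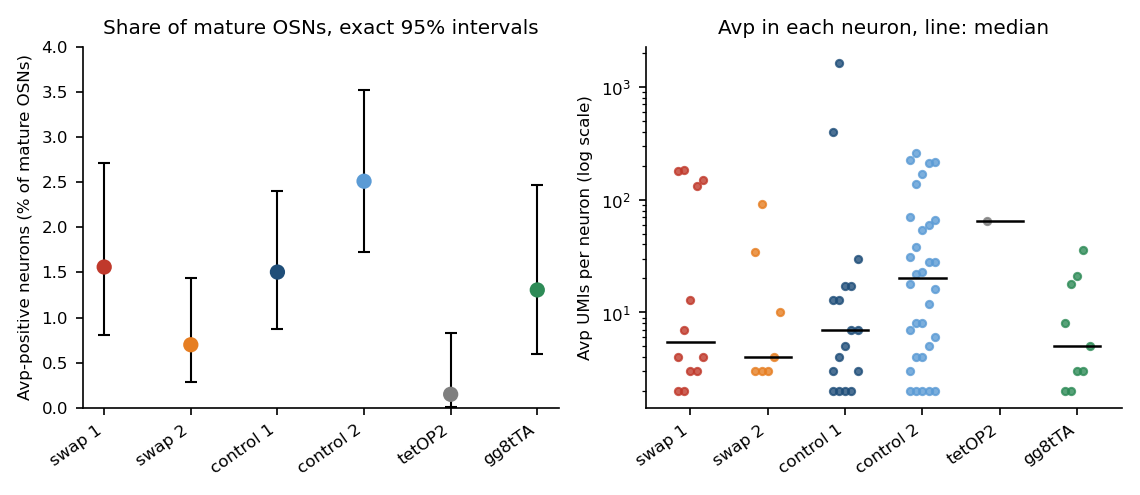
Left, the share of mOSNs that were Avp-positive neurons in each library (%), with exact 95% intervals for counting error. Right, *Avp* UMIs in each of the 78 neurons by library on a log axis, with the median as a line. The share ran from 0.149% in tetOP2 to 2.51% in control replicate 2, and single cells ranged from 2 to 1608 *Avp* UMIs.

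The amount of *Avp* mRNA differed widely from neuron to neuron. The lowest, median and highest *Avp* counts were 2, 8 and 1608 UMIs over the 78 neurons. The median was 5.5 UMIs in swap replicate 1 (2 to 181), 4 in swap replicate 2 (3 to 92), 7 in control replicate 1 (2 to 1608), 20 in control replicate 2 (2 to 257) and 5 in gg8tTA (2 to 36), and the only tetOP2 neuron had 65. The ranges of the swap and control libraries overlapped. There were 29 neurons with 2 to 4 UMIs, 37 with 5 to 99 and 12 with 100 or more. At the threshold itself, 13 neurons had exactly 2 *Avp* UMIs, and 48 mOSNs without *Nqo1* had 1 and were left out. Another 6 mOSNs with 2 or more *Avp* UMIs were left out because they held *Nqo1*. The highest cell, which chose *Olfr1346* in control replicate 1, gave 9.90% of its UMIs to *Avp*.

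By the rule that chose them, these neurons held most of the *Avp* mRNA of mOSNs. They held 97.3% of the *Avp* UMIs of all mOSNs, from 60.9% in gg8tTA to 99.2% in control replicate 1. Of the *Avp* UMIs of all kept cells they held 76.6%, a share that ran from 29.0% in swap replicate 2 to 86.3% in control replicate 1. In the whole mOSN population *Avp* stood at 75.5 CPM in swap replicate 1, 12.03 in swap replicate 2, 151 in control replicate 1, 103 in control replicate 2, 9.15 in tetOP2 and 18.6 in gg8tTA. Sustentacular-like cells (at least 10 *Cyp2g1* UMIs and more *Cyp2g1* than *Omp*), which should lack *Avp* and so show the level of free RNA, stood at 0.524 CPM or less in each library.

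Deeper cells have more chances to pass a minimum of 2 UMIs, so every cell was also thinned to 3000 UMIs. At that depth, 2 or more *Avp* UMIs, with no condition on *Nqo1*, were kept by 7 of 762 and 3 of 995 mOSNs in the swap replicates, by 9 of 1117 and 17 of 1265 in the controls, by 1 of 671 in tetOP2 and by 7 of 689 in gg8tTA. None of the thinned sustentacular-like cells did, which allows a share of up to 0.456% in control replicate 1, where they were most numerous, and of up to 1.46% in gg8tTA, where they were fewest. Without thinning, the median depth of the Avp-positive neurons was 12836.5 UMIs against 11528 in the other mOSNs of swap replicate 1, 14628 against 12611 in swap replicate 2, 16237 against 12401 in control replicate 1 and 16255 against 12791.5 in control replicate 2. It was 11168 against 11283 in tetOP2 and 11841 against 12127.5 in gg8tTA, so the neurons were deeper than the rest only in the swap and control libraries. Of the 78 neurons, 3 were predicted doublets, 2 in swap replicate 1 and 1 in control replicate 1.

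The ventral label was checked against its markers. *Cidea*, which encodes a lipid-droplet protein and is named among ventral OSN genes, was detected in all 78 neurons, *Rprm*, which encodes the cell cycle protein Reprimo, in 67 (85.9%) and *Nrp2* in 67 (85.9%). In mOSNs with neither *Avp* nor *Nqo1*, the most similar cells, of which there were 3217, *Cidea* was detected in 59.9%, *Rprm* in 14.5% and *Nrp2* in 58.1%. The label did not hold in every respect. *Acsm4*, a dorsal gene, was detected in 24 neurons, 17 of which had 4 or more UMIs, and 9 neurons chose class I ORs, all of them with 4 or more *Acsm4* UMIs. *Ncam2*, a ventral gene, was detected in 56.4% of the neurons and 64.3% of the comparison cells. The cells are therefore called Avp-positive neurons here.

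Several ORs were chosen by more than 1 Avp-positive neuron. The chosen OR of a cell was the *Olfr* gene with the most UMIs, at least 3, with ties left out. A chosen OR was found in 76 of the 78 neurons. These chose 34 different ORs, 20 of which were chosen by 1 neuron each. Only 2 neurons had a second OR with 3 or more UMIs.

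*Olfr1346* (chromosome 7, 6474112 to 6475053) and *Olfr729* (chromosome 14, 50147901 to 50148872) led with 8 neurons each. Of all mOSNs that chose *Olfr1346*, 8 of 10 were Avp-positive neurons, or 80.0% (exact 95% interval 44.4 to 97.5%), and of those that chose *Olfr729*, 8 of 11, or 72.7% (39.0 to 94.0%). The neurons were also 5 of 10 mOSNs with *Olfr741*, 5 of 14 with *Olfr727* and 5 of 17 with the class I receptor *Olfr613* (chromosome 7, 103550368 to 103555504). Thus even the ORs chosen most often were chosen in part by cells outside the group. Next came *Olfr1259* with 4 of 13, *Olfr734* with 4 of 16, *Olfr1105* with 3 of 4, *Olfr513* with 3 of 6 and *Olfr309* with 3 of 20. *Olfr1006* with 2 of 9, *Olfr536* with 2 of 19 and *Olfr1012* with 1 of 5 complete the receptors named by rule.

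The genes of 4 of these ORs, *Olfr727*, *Olfr729*, *Olfr734* and *Olfr741*, lie in 1 stretch of chromosome 14 from 50126553 to 50486395. Chromosome 14 held the chosen OR of 23 neurons, or 30.3% of those with a chosen OR, against 5.49% of all 5005 mOSNs with one. Chromosome 7 held that of 27 neurons (35.5%, against 28.8% of all mOSNs with one) and chromosome 2 that of 14 (18.4% against 19.0%). ORs of 1 cluster are similar in sequence, and reads shared between close copies could be counted for either.

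**Figure D2:**
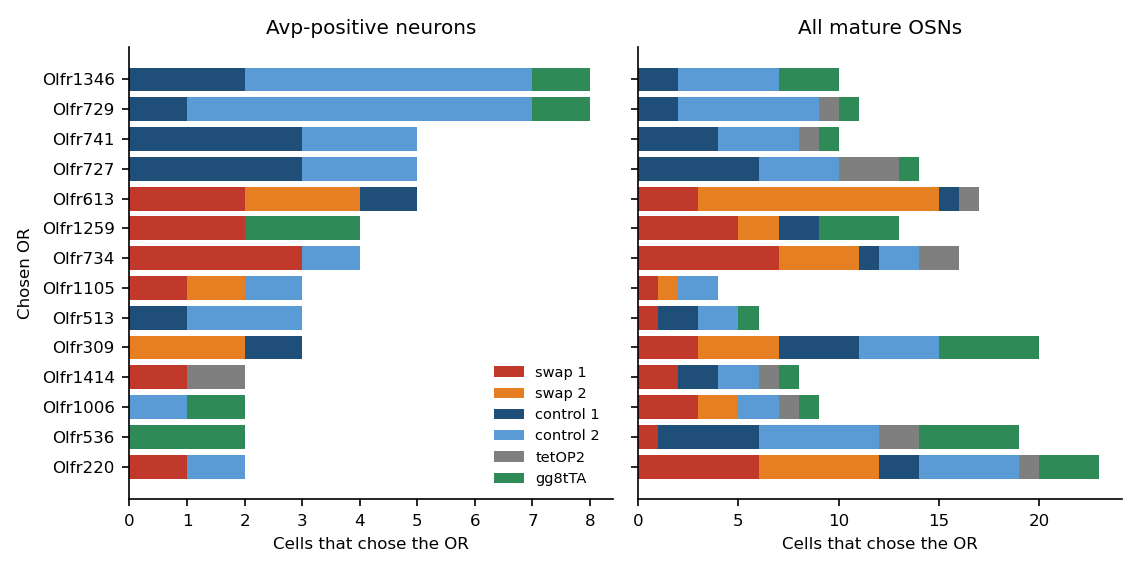
ORs chosen by 2 or more Avp-positive neurons. Left, the number of neurons that chose each OR. Right, the number of all mOSNs that chose it, both coloured by library. *Olfr1346* and *Olfr729* led with 8 neurons each, none of them from a swap library.

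*Avp* levels differed between neurons that chose different ORs. The 3 *Olfr513* neurons had 137, 214 and 394 *Avp* UMIs, and the 3 *Olfr1105* neurons 6, 92 and 178. The median was 25.5 UMIs for *Olfr1346* (3 to 1608), 30 for *Olfr741* (2 to 70) and 10.5 for *Olfr729* (2 to 257), while *Olfr309* neurons had 10 at most. *Olfr513* neurons thus all lay above all *Olfr741*, *Olfr727* and *Olfr309* neurons, with 3 to 5 cells each. *Nrp2* was read by OR as well. Summed over the neurons of an OR it stood at 517 CPM for *Olfr1105*, 362 for *Olfr729*, 333 for *Olfr727* and 307 for *Olfr1346*, and at 113 CPM for *Olfr513*, 107 for *Olfr1259* and 72.1 for *Olfr734*. The 3 *Olfr1105* neurons, at 491 to 603 CPM, lay above all neurons of *Olfr513*, *Olfr1259* and *Olfr734*. For the other ORs single neurons overlapped. They ran from 71.4 to 555 CPM for *Olfr729*, 54.5 to 601 for *Olfr727* and 130 to 514 for *Olfr1346*. Against these stood 80.3 to 174 CPM for *Olfr513*, 0 to 240.2 for *Olfr1259* and 0 to 167 for *Olfr734*. Neurons of 1 OR share a target and often a library, so no test was made.

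In tetOP2, 377 of 639 mOSNs with a chosen OR chose *Olfr17* (59.0%). None of these 377 was an Avp-positive neuron, which allows a share of up to 0.796%, and 4 held a single *Avp* UMI. The only tetOP2 neuron chose *Olfr1414*.

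To find the genes that set these neurons apart, UMIs were summed per library over the Avp-positive neurons and over other mOSNs and compared with the library as a block by edgeR's quasi-likelihood test. To pass, a gene needed an adjusted p (Benjamini-Hochberg) under 0.05 and had to change by more than 0.58 on the log2 scale. Against all other mOSNs, 928 of 11982 genes other than ORs passed (7.74%), of which 391 were higher (3.26%) and 537 lower (4.48%). Against the 3217 mOSNs with neither *Avp* nor *Nqo1*, 336 of 11173 were higher (3.01%) and 503 lower (4.50%), of which 82 and 404 had the same sign in all 6 libraries on scaled counts. Of 660 OR genes tested against all other mOSNs, 5 were higher (0.758%) and 462 lower (70.0%), and of 427 tested against the mOSNs with neither gene, 5 were higher (1.17%) and 350 lower (82.0%). The 5 higher in the second comparison, named here after their values had been seen, were *Olfr1105*, *Olfr727*, *Olfr729*, *Olfr78* and the pseudogene *Olfr1372-ps1*. These OR counts are a description and support nothing. The neurons chose 34 ORs, so most OR genes could enter the test through the far more numerous comparison cells alone, while *Olfr1105* was at 0 in the comparison cells and entered through the neurons alone. The median log2 fold change over the genes tested was -0.13 and -0.14 in these comparisons, and the split between higher and lower genes moved with the scaling, from 40.05% higher to 53.2% with relative log expression size factors against the comparison cells and from 42.1% to 51.6% against all other mOSNs. With DESeq2 it was 61.9% in both, with 239 genes higher and 147 lower against the comparison cells and 266 and 164 against all other mOSNs. Few of these calls were kept when the comparison cells were limited by their ORs, which leaves fewer cells and does not match the mix of ORs between the groups. Of the 839 genes called against the mOSNs with neither gene, 531 could be tested against such cells that had chosen an OR of the Avp-positive neurons, and 18 of them were still called in the same direction, 12 higher and 6 lower. The values below are log2 fold changes ± SE against the mOSNs with neither gene unless another comparison is named, and levels are CPM of the summed UMIs in swap replicates 1 and 2, control replicates 1 and 2, tetOP2 (1 neuron) and gg8tTA, in that order.

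Genes that mark ventral OSNs changed in both directions. Of the 10 ventral genes, 4 rose and 2 fell, where 3.01% and 4.50% of all genes did, and their median was 0.33 against -0.14 over all genes tested. Of these 6 calls, those of *Pcp4l1* and *Ncam2* were kept against cells that chose the same ORs. *Rprm* stood at 543, 239.9, 483, 455, 716 and 380.5 CPM in the Avp-positive neurons and between 24.8 and 86.5 CPM in the comparison cells, so the groups did not overlap (2.93 ± 0.15, adjusted p = 8.67e-21). *Cidea* stood at 666, 605, 835, 497, 895 and 661 CPM against 162 to 316 CPM (1.53 ± 0.12, adjusted p = 7.34e-22). *Pcp4l1*, a small calmodulin-binding protein of the same list, stood at 3776, 2370.5, 2984, 4274, 6537 and 3044 CPM against 577 to 1156 CPM (2.07 ± 0.12, adjusted p = 1.26e-32). All 3 were higher in every library. *Nrp2* rose less (0.67 ± 0.14, adjusted p = 0.000136), with 194, 249.5, 216, 224, 89.5 and 145 CPM against 83.4 to 151 CPM, and the ranges overlapped. *Ncam2* fell (-0.99 ± 0.18, adjusted p = 8.01e-06), with 38.8, 76.8, 71.0, 88.0, 89.5 and 54.4 CPM against 125, 111, 131, 179, 69.6 and 71.6 CPM, a lower CPM in 5 of 6 libraries, and so did *Nfix*, a transcription factor gene of the NFI family (-0.60 ± 0.15, adjusted p = 0.00239). Against all other mOSNs, which include the dorsal *Nqo1*-positive cells, 6 rose and none fell, the interferon-inducible gene *Ifi27* and the cytoskeletal adaptor gene *Pdlim1* being added.

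The dorsal genes did not all move together. Of 6 tested, 1 rose and 2 fell, where 3.01% and 4.50% of all genes did. *Cd55*, which encodes a complement regulator, fell (-3.15 ± 0.29, adjusted p = 4.46e-17), with 12.9, 0, 16.9, 17.2, 0 and 0 CPM against 33.7 to 182 CPM. *Robo2*, the Slit receptor that guides dorsal OSN axons, fell as well (-1.43 ± 0.25, adjusted p = 3.56e-06). *Acsm4* went the other way. It stood at 291, 76.8, 115, 84.2, 0 and 90.6 CPM in the Avp-positive neurons against 57.9, 25.5, 28.4, 18.6, 38.6 and 62.1 CPM in the comparison cells and was higher (1.80 ± 0.20, adjusted p = 4.69e-09) in 5 of 6 libraries. Against all other mOSNs *Acsm4* was lower (-0.74 ± 0.16, adjusted p = 8.29e-05). *Cartpt* (-0.67 ± 0.22), *Sema3f* (-0.49 ± 0.48) and *Socs2* (0.14 ± 0.17) did not pass against mOSNs with neither gene, and the median of the dorsal list was -0.58. Against cells that chose the same ORs, *Acsm4* (1.27 ± 0.48, adjusted p = 0.705) and *Robo2* (-0.27 ± 0.36, adjusted p = 0.978) did not pass, and *Cd55* was not tested.

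*Acsm4* was not spread evenly over the neurons. It was 0 in 54 of them, 1 to 3 UMIs in 7 and 4 to 13 UMIs in 17. Neurons with 4 or more *Acsm4* UMIs had *Nrp2* at 132 CPM and *Ncam2* at 22.6 CPM in their summed counts, against 248 and 91.2 CPM in neurons with none. *Cidea* was at 452 against 678 CPM and *Rprm* at 512 against 433 CPM. None of the neurons that chose *Olfr1346*, *Olfr729*, *Olfr741* or *Olfr727* had 4 or more *Acsm4* UMIs, and all 5 *Olfr613* neurons did.

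**Figure D3:**
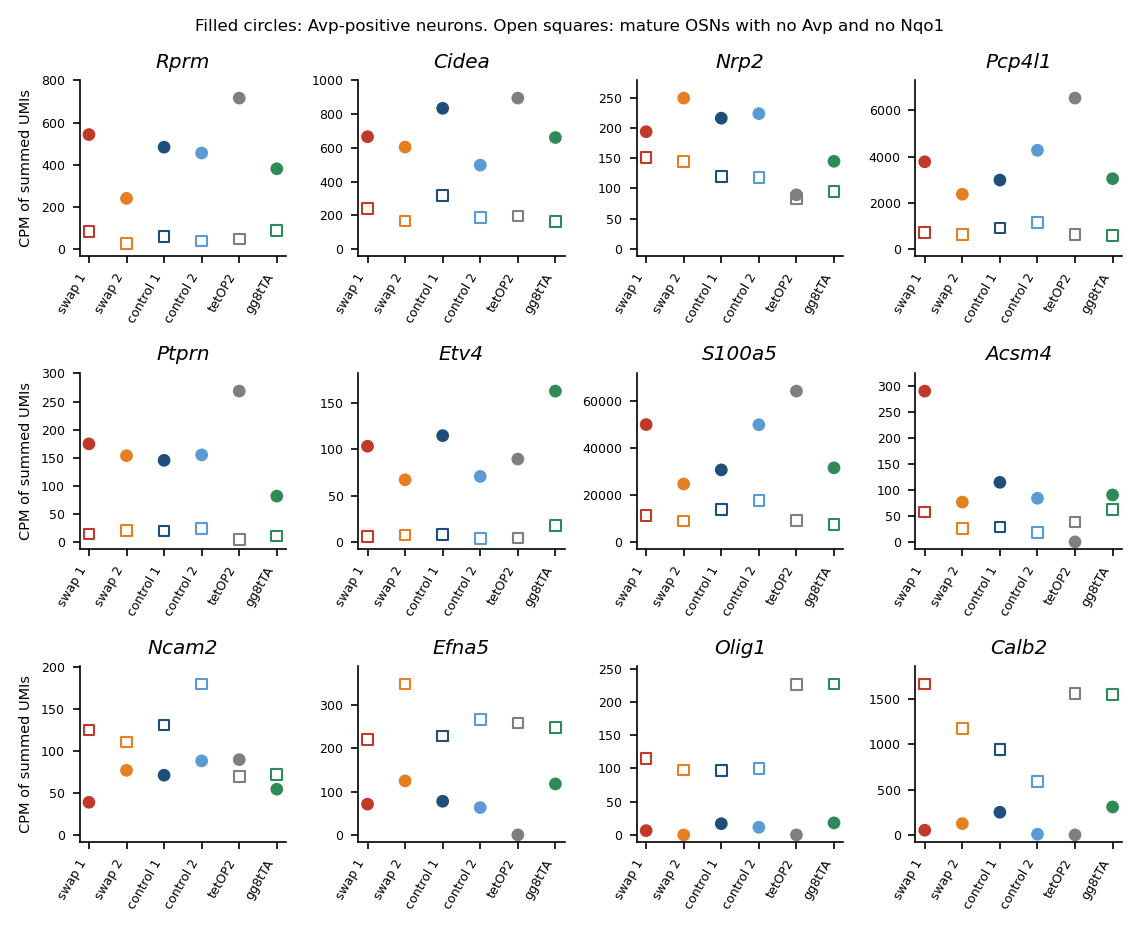
CPM of the summed UMIs for 12 genes in each library, on linear axes that differ between panels. Filled circles are Avp-positive neurons and open squares mOSNs with neither *Avp* nor *Nqo1*. *Rprm*, *Cidea*, *Pcp4l1*, *Ptprn*, *Etv4* and *S100a5* are higher in the neurons of all 6 libraries, and the tetOP2 circle is a single cell.

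Among the genes named by rule were a pair that encode vesicle proteins. *Ptprn*, which encodes the dense-core vesicle membrane protein IA-2, stood at 175, 154, 145, 155, 269 and 81.5 CPM against 4.64 to 23.9 CPM (2.95 ± 0.18, adjusted p = 5.81e-29). It was detected in 74.4% of the Avp-positive neurons and 13.3% of the comparison cells. *Syt4*, a synaptotagmin of vesicles, stood at 233, 432, 358, 608, 269 and 480.1 CPM against 61.1 to 132 CPM (2.01 ± 0.14, adjusted p = 8.55e-17). Neither gene overlapped between the groups.

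The genes listed for the vasopressin system and peptide processing had a median of 0.54, against -0.14 over all genes tested. Of 14 tested, 7 rose and 1 fell (3.01% and 4.50% over all genes). Against cells that chose the same ORs, 6 of these 8 could be tested and *Pcsk1n* alone was called. *Pcsk1n*, which encodes an inhibitor of prohormone convertase 1, rose (1.65 ± 0.15, adjusted p = 5.06e-17), with 200.4, 134, 284, 195, 448 and 109 CPM against 45.2 to 79.8 CPM. *Pcsk2*, the second prohormone convertase, stood at 84.1, 134, 105, 107, 0 and 99.7 CPM against 20.0 to 35.9 CPM (1.82 ± 0.19, adjusted p = 1.48e-14). *Scg2*, a granin of secretory granules, rose too (2.80 ± 0.27, adjusted p = 2.96e-16), at 45.3, 48.0, 108, 44.0, 0 and 9.06 CPM against 3.23 to 10.3 CPM. *Pcsk1* (1.82 ± 0.51), *Chgb* (0.91 ± 0.15), *Vgf* (3.56 ± 1.08) and *Cadps2* (0.63 ± 0.15) were also higher, of which *Pcsk1* and *Vgf* stood at 19.4 CPM or less in every library. *Vgf* gave 6 UMIs in the neurons and 18 in the 3217 comparison cells. It could thus enter the test through the neurons alone, and its call, 1 of the 7, is a description that supports nothing. *Chga*, the chromogranin A gene, fell (-0.61 ± 0.12, adjusted p = 2.89e-05). *Cpe*, carboxypeptidase E (0.18 ± 0.12), *Pam*, which amidates peptides (-0.39 ± 0.67), and the granule genes *Scg3* (0.39 ± 0.16), *Scg5* (0.44 ± 0.12) and *Cadps* (0.13 ± 0.17) did not pass. The receptor genes *Avpr1a*, *Avpr1b* and *Avpr2* were not among the 14 genes tested.

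Other genes named by rule covered regulation, calcium and adhesion. *Etv4*, an ETS transcription factor gene, stood at 103, 67.2, 115, 70.8, 89.5 and 163 CPM against 3.59 to 17.9 CPM (3.71 ± 0.22, adjusted p = 1.02e-30) and was detected in 45 neurons. The calcium-binding genes *S100a5* (1.67 ± 0.14), known to follow OSN activity, and *S100a6* (1.79 ± 0.15) rose in all 6 libraries. *S100a5* was one of the most abundant mRNAs, at 50095, 24722, 30742, 50022, 64380.4 and 31617 CPM. The protocadherin gene *Pcdh7* (1.97 ± 0.14), the lactate dehydrogenase gene *Ldhb* (1.18 ± 0.12) and the sodium-calcium exchanger gene *Slc24a2* (1.26 ± 0.12) rose as well, and so did *Plvap* (3.31 ± 0.28), best known from endothelium, and the kinase gene *Dclk1* (2.21 ± 0.21).

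Among the genes that fell, *Olig1*, a bHLH transcription factor gene, stood at 6.47, 0, 16.9, 11.5, 0 and 18.1 CPM against 96.5 to 227 CPM (-3.36 ± 0.28, adjusted p = 7.55e-20). *Efna5*, the ephrin-A5 guidance ligand, stood at 71.1, 125, 77.7, 63.1, 0 and 118 CPM against 220.4 to 348 CPM (-1.74 ± 0.17, adjusted p = 4.59e-16). *Hist2h2be*, a histone variant gene of OSNs known to follow their activity, stood at 123, 125, 128, 138, 358 and 371 CPM against 422 to 1229 CPM (-1.84 ± 0.14, adjusted p = 1.05e-21). *Tmsb4x*, which binds actin monomers, fell from between 13912 and 18793 CPM to between 5605 and 7662 CPM (-1.35 ± 0.13). The remaining lower genes were *Dcdc2a* (-1.62 ± 0.15), *B830017H08Rik* (-1.87 ± 0.17), *A730046J19Rik* (-1.81 ± 0.19) and *Sgpl1* (-1.43 ± 0.15).

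*S100a8* (-3.44 ± 0.32), *Camp* (-4.18 ± 0.81) and *Reg3g* (-2.99 ± 0.30), which fell as well, are made by neutrophils or respiratory epithelium. *Col1a2*, a collagen gene of fibroblasts, was lower against all other mOSNs (-3.39 ± 0.28) but did not pass against those with neither gene (-3.04 ± 0.82, adjusted p = 0.0561), where it was lower in 4 of 6 libraries. *S100a8* was detected in a similar share of Avp-positive neurons and comparison cells, 16.7% and 19.3%. The part of free RNA from these cells in the result was not tested. Against all other mOSNs and against those with neither gene, no marker on the lists of other cells was called higher in the Avp-positive neurons. Of 6 sustentacular genes tested, *Cbr2* and *Sec14l3* fell, where 4.50% of all genes did. The summed level of the 7 genes listed was 100.1 CPM in the neurons and 252 CPM in other mOSNs, with *Cbr2* the most abundant gene. Of 5 respiratory genes tested, *Bpifa1*, *Reg3g* and *Cyp2f2* fell (349 against 840.2 CPM summed), and of 5 immature OSN genes tested *Gng8* and *Dpysl3* fell. None of the calls on these 3 lists was kept against cells that chose the same ORs. *Gng8*, the defining immature gene, gave 5 UMIs in all 78 neurons. The summed levels of the ensheathing glia list (39.2 against 144 CPM) and the Bowman gland list (6.67 against 12.2 CPM) were also lower. The 5 immune genes summed to 23.4 CPM in the neurons and 56.7 CPM in other mOSNs, but to 162 CPM in the neurons of swap replicate 1, with *Cd74* the most abundant. All 24 *Cd74* UMIs of the 78 neurons lay in 1 cell, and *Lyz2* was at 0. *Trpc2*, the defining vomeronasal channel, was at 0 as well.

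Red cell and B cell genes were seen in some of the neurons. The 5 erythroid genes summed to 252, 0, 142, 7.65, 0 and 63.4 CPM in the neurons, against 9.01 to 119.8 CPM in other mOSNs, with *Hba-a2* the most abundant, and none of the 4 tested passed in these comparisons. The B lineage genes summed to 64.7, 0, 30.4, 1.91, 0 and 0 CPM, against 4.32 to 15.8 CPM in other mOSNs, with *Cd79a* the most abundant. Both lists were highest in swap replicate 1 and control replicate 1, the libraries that hold the predicted doublets among the neurons. Their part in the results was not tested. With predicted doublets left out, 362 genes were higher and 420 lower, against 336 and 503 with them.

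**Figure D4:**
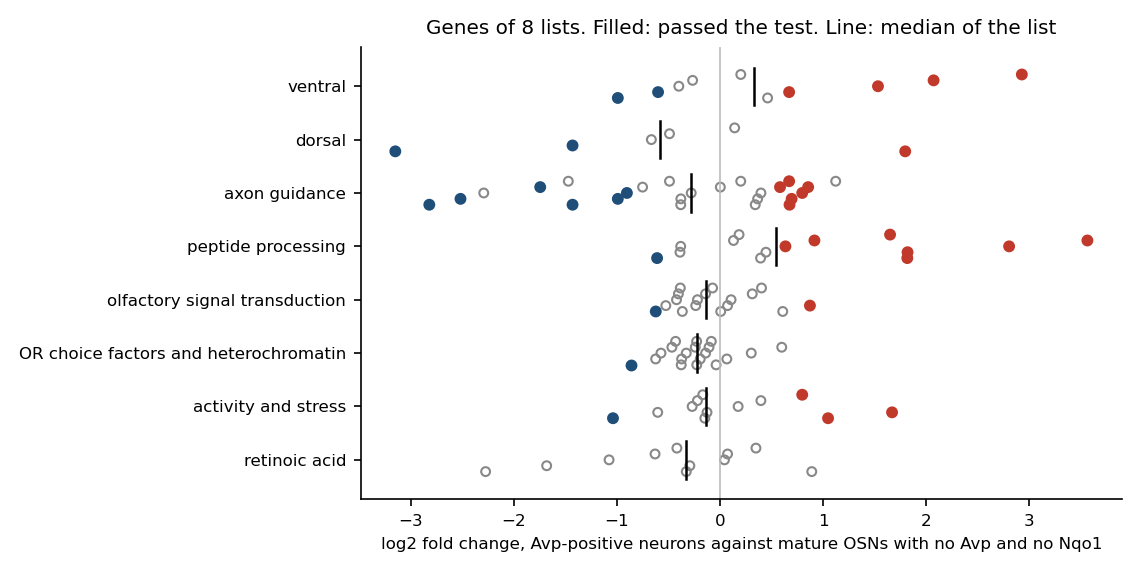
Log2 fold change of each tested gene of 8 lists, Avp-positive neurons against mOSNs with neither *Avp* nor *Nqo1*. Filled points passed the test (red higher, blue lower), open points did not, and a line marks the median of each list. The peptide processing list has the highest median, 0.54, and the dorsal list the lowest, -0.58.

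Guidance genes changed in both directions. Of 25 tested, 6 rose and 6 fell (3.01% and 4.50% over all genes), with a median of -0.28. Against cells that chose the same ORs, 10 of these 12 could be tested and *Ncam2* alone was called. The semaphorin receptor *Nrp1* (0.69 ± 0.15), its partner *Plxna3*, the ephrin receptors *Epha5* and *Epha7* and the adhesion molecule *Kirrel2* rose along with *Nrp2*. The plexin gene *Plxna1* fell in all 6 libraries (-2.52 ± 0.28, adjusted p = 4.53e-13), with 12.9, 0, 6.76, 19.1, 0 and 45.3 CPM against 64.0 to 101 CPM, and *Efna3* (-2.82 ± 0.74), *Robo1*, *Robo2*, *Efna5* and *Ncam2* fell as well. In the list of activity and stress genes, *S100a5*, *Kirrel2* (0.80 ± 0.16) and *Bex1* (1.05 ± 0.19) rose and *Pcdh10* (-1.04 ± 0.16) fell, of 12 tested, and of these 4 *Pcdh10* alone was called against cells that chose the same ORs. *Kirrel2* and *Pcdh10* encode adhesion molecules that OSN activity is known to regulate. The list's median, -0.14, was that of all genes tested.

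Genes of the machinery that mOSNs share were counted next. Of 17 olfactory transduction genes 2 passed, where 7.51% of all genes other than ORs did. *Pde1c*, a phosphodiesterase of cilia, rose (0.87 ± 0.12, adjusted p = 3.41e-09) and *Rtp1*, which brings ORs to the membrane, fell (-0.62 ± 0.13, adjusted p = 0.000123). Of 19 OR choice factors and heterochromatin genes 1 fell, *Emx2* (-0.86 ± 0.18, adjusted p = 0.000161), which encodes a homeodomain protein of OSNs. Against cells that chose the same ORs, *Pde1c* (0.22 ± 0.15, adjusted p = 0.945), *Rtp1* (-0.32 ± 0.16, adjusted p = 0.783) and *Emx2* (-0.61 ± 0.23, adjusted p = 0.413) did not pass. *Cbx1* and *Cbx5* passed in none of the 3 comparisons with other mOSNs. None of 11 retinoic acid genes passed by edgeR, and their median was -0.33.

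The calls depended on which cells were compared. When the comparison cells were limited to mOSNs with neither *Avp* nor *Nqo1* that had chosen an OR of the Avp-positive neurons, a comparison added after the first results had been seen, 14 of 6252 genes were higher (0.224%) and 6 lower (0.096%). It set 76 neurons against 41, 43, 52, 45, 19 and 27 comparison cells in the 6 libraries. The ORs were pooled and not matched in number, so their mix differed between the groups. *Olfr1346*, for instance, was chosen by 8 neurons among 10 mOSNs, and *Olfr309* by 3 neurons among 20. *Ptprn* (1.18 ± 0.22, adjusted p = 0.00367), *Pcp4l1* (0.80 ± 0.16, adjusted p = 0.00601), *Pcsk1n* (0.96 ± 0.19, adjusted p = 0.00568), *Syt4* (0.79 ± 0.17, adjusted p = 0.0198), *Plvap* (2.42 ± 0.31, adjusted p = 6.00e-06) and *Dclk1* (0.85 ± 0.20, adjusted p = 0.0344) were still higher, and *Pcdh10* (-1.29 ± 0.19), *Ncam2* (-0.93 ± 0.22) and *B830017H08Rik* (-0.96 ± 0.20) still lower. Also higher was *Alas2* of the erythroid list, the heme synthesis gene of red cell precursors (4.07 ± 0.79, adjusted p = 0.00568). It was detected in 4 of the 78 neurons and stood at 84.6, 0, 49.6, 2.26, 0 and 9.86 CPM on scaled counts, above the comparison cells in 4 of 6 libraries. The other higher genes were named only after their values had been seen. They were *Vpreb3*, a gene of B cell precursors, *Resp18*, a gene of neuroendocrine secretory cells (2.34 ± 0.37), *S100a13*, *1500017E21Rik*, *Id3*, *Tspan12* and the neurotrophin gene *Bdnf* (2.76 ± 0.58). In the wider comparison with all mOSNs with neither gene, *Bdnf* was higher in only 3 of 6 libraries and lower in 2. *Vpreb3* was detected in 7 neurons, at 56.4, 21.2, 76.3, 2.26, 0 and 9.86 CPM on scaled counts. It was at 0 in the comparison cells that chose the same ORs in every library, so it entered the test through the neurons alone and its direction was fixed. The part of red cell and B cell RNA in this comparison was not tested. By contrast *Rprm* (0.38 ± 0.16, adjusted p = 0.607), *Cidea* (0.38 ± 0.14, adjusted p = 0.414), *Nrp2* (0.38 ± 0.17, adjusted p = 0.704) and *Etv4* (0.96 ± 0.26, adjusted p = 0.119) no longer passed. The calls of the peptide processing genes *Pcsk2* (0.48 ± 0.22, adjusted p = 0.713), *Scg2* (1.49 ± 0.45, adjusted p = 0.26) and *Chgb* (0.64 ± 0.18, adjusted p = 0.131) were lost too, and *Pcsk1* and *Vgf* had too few UMIs to be tested. Of the lower genes, *Hist2h2be* (-0.05 ± 0.17, adjusted p = 0.992), *Tmsb4x* (-0.19 ± 0.15, adjusted p = 0.978), *Olig1* (-0.52 ± 0.47, adjusted p = 0.978), *S100a8* (-0.26 ± 0.50, adjusted p = 0.987) and *Efna5* (-0.67 ± 0.22, adjusted p = 0.26) did not pass. Nor did *Pcdh7* (0.44), *S100a5* (0.76), *S100a6* (0.57), *Ldhb* (0.58) and *Slc24a2* (0.58) among the higher genes, or *Dcdc2a* (-0.60), *A730046J19Rik* (-0.94) and *Sgpl1* (-0.52) among the lower ones. *Nrp1* and *Cadps2* changed sign (-0.71 ± 0.19 and -0.20 ± 0.18), and neither passed.

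*Fxyd2*, a regulator of the sodium pump, and *Ppa1*, a pyrophosphatase, were chosen after their values had been seen. *Ppa1* was detected in all 78 neurons and *Fxyd2* in 21 of them. Against cells that chose the same ORs neither passed (2.32 ± 0.34, adjusted p = 0.0641 for *Ppa1* and 3.98 ± 1.13, adjusted p = 0.46 for *Fxyd2*). Against mOSNs with neither gene, *Fxyd2* stood at 950.4, 3244, 1142, 494, 9491 and 9.06 CPM against 8.87 to 173 CPM (5.19 ± 0.85, adjusted p = 0.0159) and was lower than in the comparison cells only in gg8tTA. All 5 *Olfr613* neurons (1 to 208 UMIs), all 3 *Olfr1105* neurons (11 to 235) and all 3 *Olfr513* neurons (34 to 83) held *Fxyd2*. So did 4 of 8 *Olfr1346* neurons and 1 of 4 *Olfr1259* neurons. No UMI was found in neurons that chose *Olfr729*, *Olfr741*, *Olfr727*, *Olfr734* or *Olfr309*. Outside the group, all 12 other *Olfr613* mOSNs held 31 to 220 UMIs. Over all mOSNs, 35 cells (0.632%) had 10 or more *Fxyd2* UMIs, and 13 of these were Avp-positive neurons.

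For some ORs the neurons differed from other mOSNs that had chosen the same OR. The 3 *Olfr513* mOSNs outside the group had no *Fxyd2* UMI. *Ppa1* ran from 375 to 770 UMIs in the 3 *Olfr513* neurons and from 6 to 75 in these 3 cells, and from 25 to 220 UMIs (median 134) in the 4 *Olfr734* neurons and from 3 to 65 (median 11.5) in the other 12 *Olfr734* mOSNs. *Rprm* was detected in all 4 *Olfr734* neurons and in 5 of these 12 cells. For other ORs the neurons had less *Rprm* than the other cells, with summed levels of 329 against 953 CPM for *Olfr309*, 244 against 709 for *Olfr727* and 272 against 588 for *Olfr741*. *Ppa1* was likewise at 18204 against 27318 CPM for *Olfr613*. For *Olfr1259*, *Ppa1* ran from 8 to 15 and from 3 to 29 UMIs, and the groups overlapped. *Calb2*, the calretinin gene and also chosen after its values had been seen, was lower in the neurons as a whole (-3.28 ± 0.54, adjusted p = 0.0165), though not by the test against cells that chose the same ORs (adjusted p = 0.527), at 51.7, 125, 250.1, 7.65, 0 and 308 CPM against 587 to 1663 CPM.

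**Figure D5:**
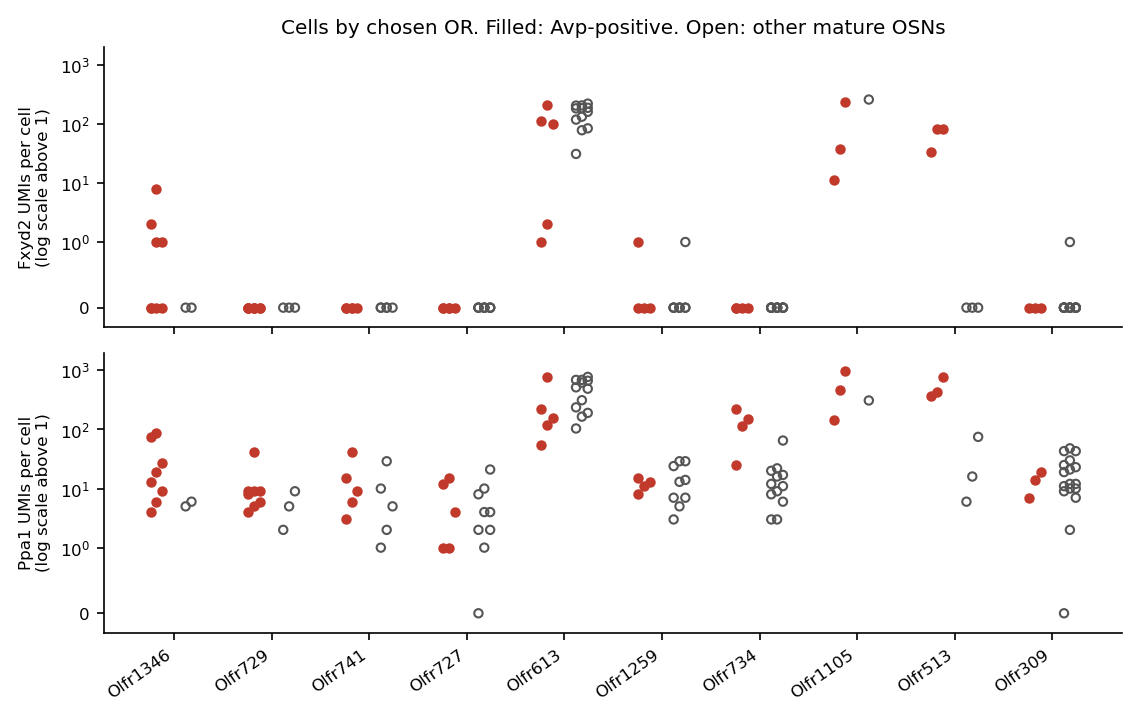
*Fxyd2* and *Ppa1* UMIs per cell (log axes above 1) for mOSNs that chose an OR with 3 or more Avp-positive neurons. Filled points are the Avp-positive neurons and open points other mOSNs with the same OR. *Fxyd2* is present in every neuron with *Olfr613*, *Olfr1105* or *Olfr513*, in some with *Olfr1346* or *Olfr1259* and in none with *Olfr729*, *Olfr741*, *Olfr727*, *Olfr734* or *Olfr309*.

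Swap and control mice were then compared to ask whether replacing HP1β by HP1α goes with a change in these neurons. Their share of mOSNs had a mean of 1.13% ± 0.609 (SD, n = 2) in swap and 2.01% ± 0.712 (SD, n = 2) in control libraries. The difference of -0.879 percentage points was not beyond the spread between libraries (exact two-sided permutation test, p = 0.667), and swap replicate 1 lay above control replicate 1. With 2 against 2 libraries the smallest exact permutation p is 0.33, so none of these tests could pass. The other definitions of the neurons that were tried gave differences from -0.530 points, with *Avp* and *Nqo1* both read after thinning, to -1.43 points. With 1 library left out the difference ran from -0.375 points, without control replicate 2, to -1.38 points, without control replicate 1.

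The ORs chosen by the neurons were also counted in swap and control libraries. *Olfr1346*, *Olfr729*, *Olfr741* and *Olfr727* lead the count over all libraries, to which control libraries give most neurons, and were picked after the counts had been seen, so their values are a description with no test. They were chosen by 9 of 17 and 15 of 30 neurons in control replicates 1 and 2, by 2 of 9 in gg8tTA, and by 0 of 12 and 0 of 7 in swap replicates 1 and 2. Among all mOSNs with a chosen OR they were chosen by 14 of 1019 (1.37%) and 20 of 1152 (1.74%) in the control libraries, by 5 of 639 in tetOP2 (0.782%) and by 6 of 604 in gg8tTA (0.993%). In the swap libraries they were chosen by 0 of 676 mOSNs, which allows a share of up to 0.444%, and 0 of 915, which allows up to 0.328%. Cells that had chosen these ORs were thus not found in the swap libraries, among mOSNs with or without *Avp*. In swap mice 1 mOSN chose *Olfr513* and 2 chose *Olfr1105*, and in control mice 4 and 2 did.

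The receptors that Avp-positive neurons of swap mice chose most were *Olfr613* with 4 neurons, *Olfr734* with 3 and *Olfr1259*, *Olfr1105* and *Olfr309* with 2 each. *Olfr613* was chosen by 3 and 12 mOSNs in swap replicates 1 and 2 and by 1 and 0 in control replicates 1 and 2. Class I ORs were chosen by 4 of 12 and 2 of 7 neurons in swap replicates 1 and 2, by 2 of 17 and 1 of 30 in control replicates 1 and 2, and by 0 of 9 in gg8tTA. The swap shares, 33.3% and 28.6%, were above the control shares, 11.8% and 3.33%, but their intervals for counting error (9.92 to 65.1% and 3.67 to 71.0% against 1.46 to 36.4% and 0.0844 to 17.2%) overlapped. Over all mOSNs with a chosen OR, class I ORs were chosen by 11.09% and 11.04% in the swap and 10.4% and 10.2% in the control libraries.

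To score the ORs with cells of other mice, an OR was called Avp-type if at least 50% of at least 3 mOSNs that chose it, in control and gg8tTA libraries other than the library scored and its same-numbered control, were Avp-positive neurons. Avp-type ORs were chosen by 16.7% and 0% of the neurons in swap replicates 1 and 2 and by 23.5% and 43.3% in control replicates 1 and 2. With unclassed ORs counted as not Avp-type, both swap libraries lay below both controls, with a difference of -25.1 points. This order did not hold under every alternative. With ORs classed from at least 2 cells, swap replicate 1 lay above both controls, and the difference was -8.43 points. With the strictest share of cells tried as the limit, control replicate 2 was at 0%, as were both swap libraries (-8.82 points). The order was kept under the other alternatives tried. ORs were unclassed in 6 of 12 and 3 of 7 neurons of swap replicates 1 and 2. In control replicates 1 and 2 they were unclassed in 4 of 17 and 8 of 30. Among classed neurons alone, the share of swap replicate 1 was not below that of control replicate 1. Swap replicate 2, with 0, stayed below both controls. Avp-type ORs were defined by *Avp* in control and gg8tTA cells. They include *Olfr1346* and *Olfr729*, already given as not found in swap, so the difference is a description with no test. In 7 neurons drawn from each library, the expected number of different ORs was 5.57 and 5 in swap and 6.02 and 5.88 in control (difference -0.668, exact permutation test, p = 0.33). OR mRNA per neuron, thinned to 3000 UMIs, had medians of 7.5 and 15 UMIs in swap and 15 and 18.5 in control. The difference was -5.5 UMIs (exact permutation test, p = 0.667), and no swap median lay above a control median. Both measures, the number of ORs and the thinned median, were lower in swap within each same-numbered pair of libraries. This did not hold under every alternative. With predicted doublets left out, the expected number of ORs was 6.07 in swap replicate 1 against 5.90 in control replicate 1. With the mean per thinned cell, OR mRNA was 22.3 UMIs in swap replicate 2 against 21.0 in control replicate 2. The other pair stayed lower in swap in each case. Neither permutation test could pass with 2 against 2 libraries, so they decide nothing.

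The genes of the neurons were compared between swap and control with edgeR on the summed counts of 12, 7, 17 and 32 cells. Of 3951 genes other than ORs, none was higher and 1 (0.0253%) was lower, *Cbx1*. It gave 0 UMIs in both swap libraries and 16 and 79 UMIs in control replicates 1 and 2, so it was at least 10.0-fold lower (adjusted p = 0.0147, floor of 3 UMIs over the swap group). *Cbx1* is the gene the swap allele replaces, and it entered the test through the controls alone. At an unadjusted p below 0.05 there were 93 genes by edgeR, and by DESeq2 28 with none after adjustment. Of 11 OR genes tested, 4 (36.4%) were called lower, *Olfr727*, *Olfr1346*, *Olfr513* and *Olfr741*. These had no UMI in either swap library and entered the test through the controls alone, so their direction was fixed and the calls are no support for a difference. *Olfr727* gave 371 and 415 UMIs in control replicates 1 and 2, where 3 and 2 neurons chose it. *Olfr1346* gave 136 and 570 UMIs with 2 and 5 such neurons, *Olfr741* 231 and 148 with 3 and 2, and *Olfr513* 50 and 212 with 1 and 2. *Olfr729*, with 46 and 709 UMIs, 1 and 6 such neurons and no UMI in swap, was not called. *Cbx5*, at 84.1 and 38.4 CPM in swap and 23.7 and 34.4 CPM in control neurons, had too few UMIs to enter the test.

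The differences between the Avp-positive neurons and mOSNs with neither gene were also compared between swap and control, an interaction added after the first results had been seen. By edgeR, none of 10885 genes other than ORs passed, and 549 had an unadjusted p below 0.05. Of 368 OR genes 7 passed (1.9%), 2 with a larger difference in swap (0.543%) and 5 with a smaller one (1.36%), each an OR chosen by 1 of these neurons. The library of that neuron fixed the direction, so the OR calls are no support for a difference. *Rprm*, *Cidea*, *Ptprn* and *Etv4* were higher in the neurons of both swap and both control libraries.

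Neurons with more *Avp* were compared with those with less in the same library, split at the median share of UMIs. None of 2027 genes other than ORs passed by edgeR or by DESeq2, with 97 and 25 genes at an unadjusted p below 0.05. Of 13 OR genes, *Olfr513* and *Olfr1006* were called higher in neurons with more *Avp* (15.4%). All their UMIs lay in the upper group, through which alone they entered the test, so these calls are a description. Levels were 447.5 and 1156 CPM for *Olfr513* in control replicates 1 and 2 and 289 and 1466 CPM for *Olfr1006* in control replicate 2 and gg8tTA, and each library rests on 1 or 2 cells.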

How the data were processed

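The authors deposited counts of UMIs per gene and cell for each of 6 libraries. They were aligned to mm10 with Cell Ranger with introns included and not normalized, and the headers of the swap and control matrices name version 3.1.0. Symbols of 24564 genes are given, among them 1116 *Olfr* genes without a pseudogene suffix. Strand and the treatment of reads shared by close copies are not given in the sources used here. A part of the genotype labels is not reported here.

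The cells, gene lists and tests were chosen with earlier results of these data known, so no count over a list is independent support. Doublets were predicted with simulated doublets (scanpy 1.11.5, 0.8% per 1000 cells), flagged by score and kept, and left out as an alternative. UMIs were summed per library and class of cells, because cells of 1 mouse are not replicates, and tested in edgeR 4.0.16 (R 4.3.3) with TMM scaling, its filter on low counts and glmQLFit with the small-count adjustment and a robust spread. This setting was picked after first results had been seen, since the defaults gave a vanishing p to *Fxyd2* although 1 library went the other way. Each call needed an adjusted p under 0.05 and a change of more than 0.58 on the log2 scale. Genes of the gate were left out of the counts of calls, and OR genes were counted apart. DESeq2 1.42.0 was an alternative. The tests were checked on simulated counts.

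For shares and medians, the 2 swap and 2 control libraries were exchanged in an exact two-sided permutation test, whose smallest p is 0.33. Nothing in the labels says that the libraries came from separate litters, so p-values measure the spread between these libraries only. A share of 0 was given the limit of 3 counts. Intervals are exact at 95%. Genes were named by a rule, namely the 12 higher and 10 lower genes with the smallest adjusted p and the same sign in all 6 libraries, the genes of the lists, the called genes between swap and control, and the 10 and 5 ORs most chosen by control with gg8tTA and by swap neurons. Exceptions are said to be chosen after their values were seen. Promoter windows and OR positions came from RefSeq tables of GRCm38.p6, in which 1104 of the 1116 OR genes were found. Immature OSN-like cells had at least 5 *Gap43* UMIs, at least as many as *Omp*, 2 or more *Gng8* and under 5 *Cyp2g1* UMIs.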

Additional observations from a re-analysis of the deposited data

Results flagged for a closer look

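Cells with 2 or more *Avp* UMIs were also found outside the mOSN gate. There were 8 cells that met every condition but the *Cyp2g1* limit, with 95 to 505 *Cyp2g1* UMIs and a median depth of 36251.5 UMIs, and 3 of them were predicted doublets. They were 1.61% of the 497 cells that met the mOSN conditions other than that limit. They lay 2 in swap replicate 1, 3 in swap replicate 2, 1 in control replicate 1 and 2 in control replicate 2, and 2 of them, both in controls, had chosen *Olfr1346*. There were also 12 of 2878 immature OSN-like cells with 2 or more *Avp* UMIs, with 71 *Avp* UMIs over all immature OSN-like cells. Their level was 0.783 to 4.10 CPM per library, above the 0.524 CPM or less of sustentacular-like cells.

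For the difference between Avp-positive neurons and mOSNs with neither *Avp* nor *Nqo1*, edgeR's interaction test between swap and control called 7 of 368 OR genes (1.90%). Each call rests on 1 neuron, whose library fixed its direction, so these calls are a description and no support for a difference. The adjusted p was 0.000437 for *Olfr211*, chosen by 1 neuron of swap replicate 2, 0.00503 for *Olfr1414*, chosen by 1 neuron of swap replicate 1, and 0.0314 for *Olfr12*, chosen by 1 neuron of control replicate 1. *Olfr449* (adjusted p = 0.00309), *Olfr1223* (0.00503), *Olfr1298* (0.00543) and *Olfr1006* (0.0314) were each chosen by 1 neuron of control replicate 2.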

How the results depend on the processing

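The 78 neurons are few, and 7 to 32 cells per swap or control library limit what could be called. The share of Avp-positive neurons was lower in swap than in control under every definition tried, with differences from -0.530 to -1.43 percentage points and no p below 0.33 in the exact permutation test, and from -0.375 to -1.38 points with 1 library left out. Against other mOSNs, the count of called genes other than ORs was 430 with DESeq2 and 535 in control and gg8tTA libraries alone, against 928. For OR genes it was 70 and 287, against 467, and 292 to 437 with 1 library left out, lowest without control replicate 2. Against mOSNs with neither *Avp* nor *Nqo1* these counts were 386 and 491, against 839, and for ORs 39 and 227, against 355. With comparison cells of the same ORs they were 20 and 2, and *Nrp1* (-0.71) and *Cadps2* (-0.20) turned sign. The cause was not tested, except that this comparison has fewer cells, does not match the mix of ORs and tests 6252 genes. Over the repeats of single named genes 1449 kept their direction and call, 152 lost the call and 2 turned. Calls were kept under every alternative by 32 of 51 named genes against other mOSNs and by 9 of 48 against mOSNs with neither gene.

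Between swap and control neurons, the count of genes other than ORs was 0 with DESeq2, with edgeR's defaults and with at least 5 *Avp* UMIs, 2 without a filter on low counts and 0 to 19 with 1 library left out, highest without swap replicate 2, against 1. For OR genes it was 7 without a filter and 6 to 12 with 1 library left out, highest without control replicate 1, against 4. The lone library is then assumed to vary like the other group. The labels tie libraries with the same number by that number alone, but the levels of some genes went with it. In other mOSNs *Col1a2* stood at 185 and 174 CPM in replicate 1 of swap and control. It stood at 3.81 and 2.11 CPM in replicate 2 of swap and control. Such genes were not counted. The deviations of same-numbered libraries had r = 0.1102 over 3968 genes, and with the replicate block 2 genes other than ORs were called. For more against less *Avp*, the count of OR genes was 0 with DESeq2, 23 without a filter and 1 to 3 with 1 library left out, against 2, and that of other genes was 1 without a filter, 1 with predicted doublets left out and 0 to 1 with 1 library left out, against 0.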
